A study of Homo sapiens with 8 samples.

Results

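Genes listed as markers of tissues other than colon were followed through 8 peak lists from HCT-116, a line of human colorectal carcinoma. The aim was to describe how often Flag-tagged actin and BRG1 were called at genes expected to be silent in such cells. The lists hold no expression, so use of these genes by the cells, or by colon tissue, was not measured. The 40 genes comprised 8 of liver, 13 of neurons, 3 of glia, 6 of blood cells, 5 of heart muscle and 5 of endocrine organs, out of 20037 protein-coding genes. They were listed by the tissue they mark. A gene was said to have a peak when a row of a list overlapped its annotated span, or the 2 kb on either side, by at least 1 bp. The series used CUT&RUN: cells are opened, an antibody brings a nuclease to the protein of interest, and the DNA cut free around it is sequenced. One library of control cells and 2 libraries of SETD3 knockout cells (KO1 and KO2) were made with an antibody to Flag, for Flag-tagged wild type actin, and the same again with an antibody to BRG1. Each antibody had 1 IgG library of control cells beside it, called here the Flag arm and the BRG1 arm IgG library. In the Flag arm the IgG title adds the word Empty, and whether those cells held the tagged actin is not stated. The origin of KO1 and KO2, as clones or as cultures of 1 clone, is not stated either, and the lists do not measure whether SETD3 was lost.

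BRG1, encoded by SMARCA4, is an ATPase of the SWI/SNF complexes, which slide or evict nucleosomes and are best known at enhancers and at the start sites of genes in use. Actin is a subunit of such complexes as well as the main filament protein of the cytoplasm, and SETD3 methylates a histidine of actin. Marker genes of another tissue are as a rule kept in closed chromatin, without the transcription factors that open them in their own cell type. They were therefore taken as a comparison for genes in use, although their silence in these cells was not measured.

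List lengths ran from 27249 to 38902 peaks for Flag-actin and from 23784 to 53270 for BRG1, with the control list the longest for either antibody, and were 20303 and 24755 for IgG. Of the antibody peaks, between 34.5% (Flag-actin control) and 71.4% (BRG1 KO1) overlapped a peak of either IgG list, and these are called IgG sites below. Read depth is unknown. Each list was called on its own library, so a count of peaks depends on the length of the list. The names of the lists carry a threshold of 0.01 for the antibodies and 0.005 for IgG, so IgG counts are not on the footing of antibody counts. With 1 control and 2 knockout libraries an exact one-sided permutation p cannot go below 0.333, so control and knockout cells are compared without a test. The strength of a peak is given as its rank, the percentile of its total signal within its own list, with 100 for the strongest. Peaks do not settle whether the cells are of colon epithelium. Of 20 colon epithelial markers 13 (65%) had a BRG1 control peak outside IgG sites, beside 52.4% of all genes and 55% of 20 housekeeping genes. These 13 ran from the keratin gene KRT8, with 14 peaks and a best rank of 89.9, down to genes with 1 peak of rank 6.68. The neuronal gene GRIN2B had 12 such peaks with a best rank of 80.8.

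In control cells 24 of the 40 marker genes had a Flag-actin peak and 22 had a BRG1 peak. The Flag-actin share was 60% (exact 95% binomial interval 43.3 to 75.1%), beside 50.3% of all genes. The BRG1 share was 55% (38.5 to 70.7%), beside 61.9% of all genes. These intervals cover the counting of genes in 1 library and not the spread between libraries. Marker genes were short, with a median span of 15.1 kb. With all genes weighted to the same mix of span classes, the shares were 46.9% for Flag-actin and 57.4% for BRG1, both inside the intervals of the markers. Outside IgG sites this did not hold for Flag-actin.

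Most of these genes carried a single peak or a few, as the plot of peaks by gene and library shows. The markers held 163 Flag-actin and 70 BRG1 peaks in control cells, and 104 of the 163, or 63.8%, lay in 1 gene, RBFOX3. Without RBFOX3 the counts were 59 and 51. Outside IgG sites 22 genes had a Flag-actin peak, 55% (38.5 to 70.7%) beside 38.9% of all genes and 37% of all genes weighted by span. For BRG1 there were 18, 45% (29.3 to 61.5%) beside 52.4% and, weighted, 48.7%. The Flag arm IgG list itself had a peak at 13 marker genes (31.4% of all genes) and the BRG1 arm IgG list at 12 (33.2%).

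**Figure D1:**
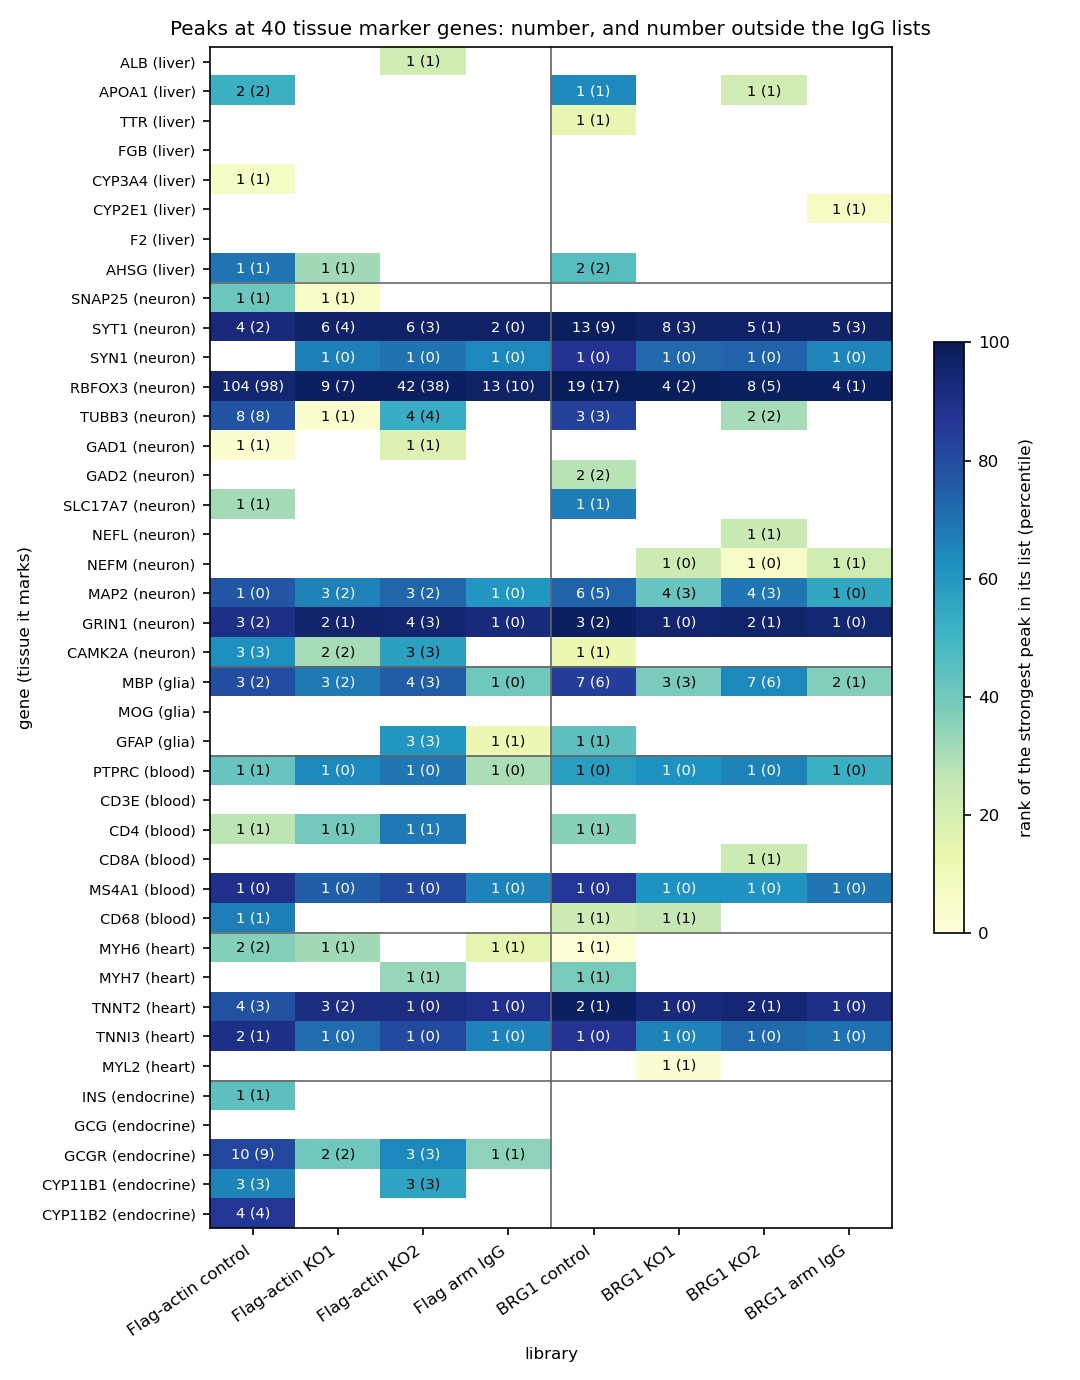
Number of peaks at each of the 40 marker genes (rows, grouped by the tissue they mark) in each of the 8 libraries (columns), with the number outside IgG sites in brackets and the rank of the strongest peak as colour. For the IgG libraries the bracket counts peaks outside the other IgG list. RBFOX3 has 104 Flag-actin control peaks, and the endocrine genes have none in the 4 BRG1 arm libraries.

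The peaks themselves were short and of middling strength. Outside IgG sites the Flag-actin control peaks at marker genes had a median width of 295 bp and a median rank of 41.3, beside 280 bp and 36.4 for all such peaks of the list. For the BRG1 control the values were 220 bp and 33.1, beside 210 bp and 36.3. The height of a peak comes in whole steps, the unit in which maximum signals rise within a library, and the median height of these peaks was 10 steps for Flag-actin and 11 steps for BRG1, beside 10 and 12 in the lists. RBFOX3 held 98 of these 148 Flag-actin peaks. Without it the 50 left had a median width of 295 bp, a median rank of 36.4 and a median height of 10 steps. The BRG1 peaks without RBFOX3, 39 in number, had medians of 220 bp, rank 33.5 and 12 steps. The typical peak at a marker gene thus had about the width and height of any peak of its list.

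Flag-actin and BRG1 marked partly different genes, at the markers as over all genes. In control cells 17 of the 40 had a peak of both, 7 of Flag-actin alone, 5 of BRG1 alone and 11 of neither. The shares with both (42.5%) and with neither (27.5%) were close to those over all genes, 40.5% and 28.2%. Over all genes Flag-actin alone made up 9.87% and BRG1 alone 21.5%, so among all genes BRG1 alone was the larger class. Outside IgG sites 9 marker genes had Flag-actin alone (13% of all genes) and 5 BRG1 alone (26.5% of all genes). Flag-actin peaks outnumbered BRG1 peaks at 14 markers and were outnumbered at 9, while over all genes the counts were 4095 and 7887. The difference of 2 genes between the antibodies changed sign with a wider window, being 1 gene in favour of BRG1 within 10 kb of the genes.

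Gene ends separated the antibodies further. Within 1 kb of either annotated end, 15 marker genes had a Flag-actin control peak, 37.5% (22.7 to 54.2%) beside 17% of all genes. Only 4 had a BRG1 control peak, 10% (2.79 to 23.7%) beside 33.5% of all genes. Neither IgG list had a peak there at any of the 40 genes, beside 4.12% (Flag arm) and 4.24% (BRG1 arm) of all genes. All 15 Flag-actin genes had such a peak outside IgG sites (14.6% of all genes): APOA1, CYP3A4, SNAP25, RBFOX3, TUBB3, SLC17A7, GRIN1, CAMK2A, CD68, TNNT2, TNNI3, INS, GCGR, CYP11B1 and CYP11B2. The BRG1 genes were APOA1, TUBB3, MAP2 and MYH7, also outside IgG sites (31% of all genes). The RefSeq gene table gives no strand or exons, so an end can be the start or the finish of a gene. Some control peaks outside IgG sites also lay over another protein-coding gene, 3 of 148 for Flag-actin and 3 of 56 for BRG1. The Flag-actin peak counted for SLC17A7 was one of them.

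To see whether other markers behaved alike, 62 further markers of the same tissues, 20 colon epithelial markers and 20 housekeeping genes were counted in the same way. The low BRG1 share recurred in the other markers, of which 3 of 62 (4.84%) had a gene-end peak, while 11 of 20 epithelial markers (55%) and 8 of 20 housekeeping genes (40%) did. The high Flag-actin share did not: 12 of 62 other markers (19.4%), 2 of 20 epithelial markers (10%) and 8 of 20 housekeeping genes (40%) had a Flag-actin gene-end peak. In the whole window the other markers stood at 45.2% for Flag-actin and 40.3% for BRG1. The Flag-actin share at gene ends of the 40 genes was thus not repeated in 62 markers of the same tissues, although their intervals overlap (22.7 to 54.2% and 10.4 to 31.4%).

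**Figure D2:**
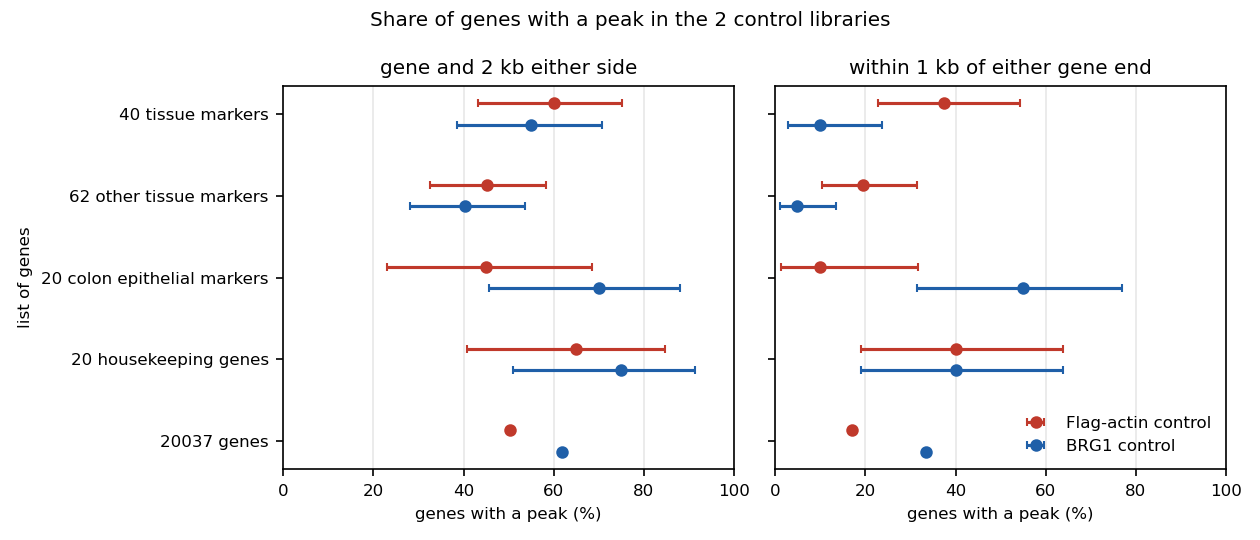
Percent of genes with a peak in the Flag-actin control (red) and BRG1 control (blue) library, for the 40 markers, 3 comparison lists and all 20037 genes, in the gene and 2 kb either side (left) or within 1 kb of either gene end (right). Points are shares and bars exact 95% binomial intervals over genes; at gene ends the markers stand at 37.5% and 10%.

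Start regions were examined in the 26 marker genes that matched the RefSeq promoter table (GRCh38, the same build as hg38), with 46 of its 35116 promoter entries. A Flag-actin control peak outside IgG sites touched the promoter window, from 250 bases before to 50 after the start, at 4 of the 46 entries, 1 each in TUBB3, INS, CAMK2A and TNNT2, beside 2.54% of all entries. A BRG1 control peak touched 1 of the 46, in TUBB3, beside 16.2% of all entries. The 250 bases before the start of these 4 genes are printed from RefSeq, 5′ to 3′ on the gene's strand, because they show how much of each start lay under a Flag-actin peak; capitals mark the bases inside that peak.
TUBB3: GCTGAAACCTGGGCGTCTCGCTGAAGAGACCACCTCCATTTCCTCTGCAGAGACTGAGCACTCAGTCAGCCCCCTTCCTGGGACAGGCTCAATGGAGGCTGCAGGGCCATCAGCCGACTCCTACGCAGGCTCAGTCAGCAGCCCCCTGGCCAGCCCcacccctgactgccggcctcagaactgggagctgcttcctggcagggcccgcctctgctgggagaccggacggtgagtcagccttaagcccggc
INS: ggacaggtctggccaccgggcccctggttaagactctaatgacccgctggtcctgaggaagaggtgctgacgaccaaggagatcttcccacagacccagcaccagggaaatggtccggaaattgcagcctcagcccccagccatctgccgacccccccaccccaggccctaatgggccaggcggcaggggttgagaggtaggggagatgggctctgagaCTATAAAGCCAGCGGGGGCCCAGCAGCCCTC
CAMK2A: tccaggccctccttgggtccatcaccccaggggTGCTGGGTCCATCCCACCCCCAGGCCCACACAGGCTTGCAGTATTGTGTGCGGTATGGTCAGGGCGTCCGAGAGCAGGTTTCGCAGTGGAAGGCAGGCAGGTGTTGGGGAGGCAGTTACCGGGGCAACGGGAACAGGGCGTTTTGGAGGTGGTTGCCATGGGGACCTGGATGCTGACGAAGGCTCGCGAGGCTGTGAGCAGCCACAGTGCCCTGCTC
TNNT2: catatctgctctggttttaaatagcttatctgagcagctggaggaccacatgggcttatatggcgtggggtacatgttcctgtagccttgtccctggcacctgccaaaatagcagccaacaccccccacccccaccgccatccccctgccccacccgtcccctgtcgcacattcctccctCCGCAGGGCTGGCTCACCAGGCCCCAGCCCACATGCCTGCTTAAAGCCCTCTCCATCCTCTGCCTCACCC
The stretches are chr16:89921675-89921924 on the plus strand for TUBB3, and on the minus strand chr11:2161210-2161459 for INS, chr5:150289774-150290023 for CAMK2A and chr1:201377681-201377930 for TNNT2. They share a GC content between 60.4% (TNNT2) and 65.6% (TUBB3), above the median of 58% over the same 250 bases of all promoters, and hold between 5 and 10 CG pairs, below the median of 11 in those bases.

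The capitals run through 156 of the 250 bases in TUBB3, 217 in CAMK2A, 70 in TNNT2 and 31 in INS. In INS, the insulin gene, the 31 bases next to the start include a TATAAA box, a motif that 10.7% of all promoters hold on either strand of these 250 bases. In TUBB3 the one match to TGANTCA, the letters bound by AP-1 factors, lies outside the Flag-actin peak but inside the BRG1 peak, which covers all 250 bases; 6.57% of promoters hold it. No GGGCGG box was found in the 4 stretches on either strand, and 42.6% of promoters hold one. The Flag-actin peaks over these starts were weak apart from the one at INS: rank 10.3 for TUBB3, 6.53 for CAMK2A, 2.53 for TNNT2 and 44.3 for INS. The INS peak, chr11:2160961-2161240, also lies over the read-through gene INS-IGF2, and the peaks of the 2 cannot be told apart.

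RBFOX3 encodes NeuN, a splicing factor used throughout neurobiology to mark neurons. Its span, chr17:79089345-79665571 on the minus strand, is 576 kb. With the Flag antibody it held 104 control peaks, 9 KO1 peaks and 42 KO2 peaks, and the IgG library of that arm held 13. With the BRG1 antibody it held 19, 4 and 8 peaks, and the IgG library 4. The Flag-actin control was thus far above every other library, KO2 came next, and KO1 was below the Flag arm IgG library. Per 10000 peaks of its list the Flag arm values were 26.7, 3.3, 11.7 and 6.4, and the BRG1 arm values 3.57, 1.68, 2.5 and 1.62, so the order in the Flag arm was not that of the list lengths. With the Flag-actin control list shortened to 23784 peaks, 59 remained in RBFOX3.

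Only 1 gene, GSE1 with 115, had more Flag-actin control peaks than RBFOX3. RBFOX3 was also in the second place in Flag-actin KO2 and at place 10 in the Flag arm IgG list. Its Flag-actin control density was 17.9 peaks per 100 kb, beside 1.26 over all genes longer than 100 kb. The BRG1 control density was 3.27, beside 1.91, and put the gene at place 80.

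The Flag-actin peaks ran through the whole gene. Successive 100 kb stretches from the 5′ end held 15, 10, 15, 15 and 19 peaks, and the rest of the gene with its flank held 30. Their median width was 285 bp, their median rank 45.5 and their median height 10 steps. None lay over any of the 12 promoter entries of the gene. Of the 104 peaks 98 were outside IgG sites, and 4 of the 104 overlapped a BRG1 control peak. Of the 9 KO1 peaks 4 overlapped a Flag-actin control peak, and of the 42 KO2 peaks 8 did. Low overlap was general to these lists. Counted from the control side and outside IgG sites, 2.63% of all Flag-actin control peaks overlapped a KO1 peak and 4.88% a KO2 peak. The strongest peak in every library was a single narrow IgG site, chr17:79438121-79438330, at ranks from 94.9 to 99.6.

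**Figure D3:**
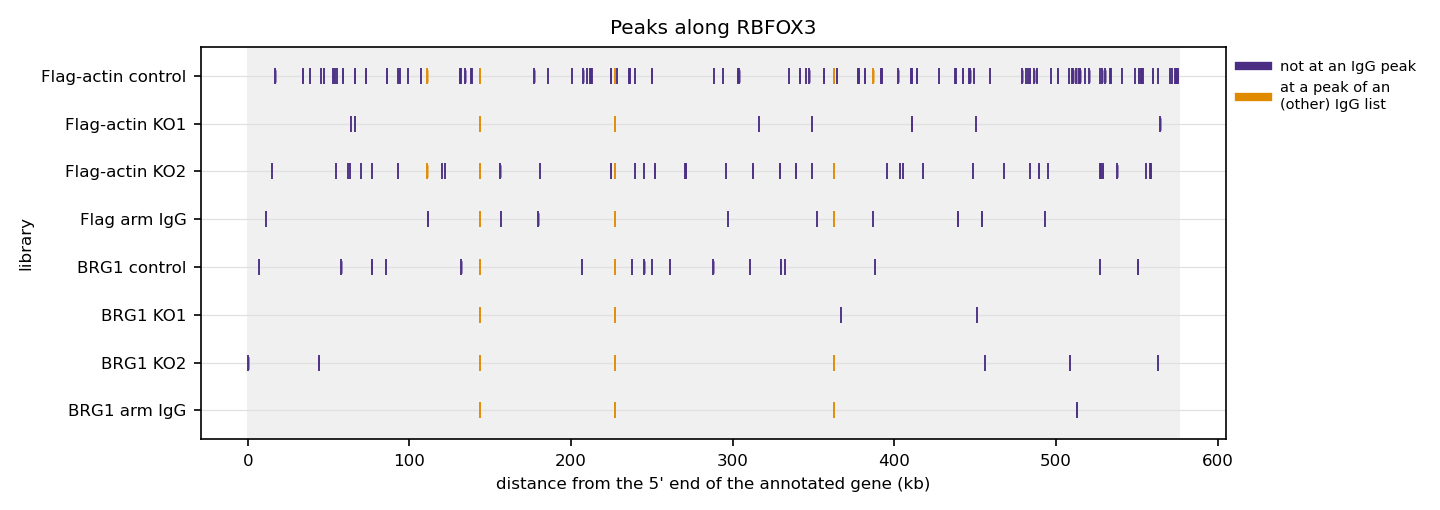
Peaks along RBFOX3 in each library, by distance in kb from the 5′ end of the annotated gene (grey). Purple marks peaks away from the IgG lists and orange marks peaks that overlap one (for an IgG library, the other one); the 104 Flag-actin control peaks run from end to end, and a few orange sites recur in library after library.

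Endocrine markers differed between the antibodies. A Flag-actin control peak was present at 4 of 5 genes, and a BRG1 peak at 0 of 5, in control and in both knockout libraries, and their own IgG library had none either. With 5 genes a count of 0 has an exact 95% interval of 0 to 52.2%. Within 10 kb of GCGR there was a BRG1 control peak, so the absence holds for the 2 kb window. It was not repeated in 12 other endocrine markers, of which 3 (25%) had a Flag-actin and 4 (33.3%) a BRG1 control peak, and the shares over all genes are 50.3% and 61.9%. The 4 genes with a Flag-actin peak lie within 5 Mb of the outermost gene of their chromosome, and GCG lies 80 Mb from it. Over all genes Flag-actin control peaks were denser within 5 Mb, at 58.9 against 15.4 per Mb of gene. The part of position in the endocrine counts was not tested.

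GCGR, the glucagon receptor gene at chr17:81804150-81814008, held 10 control, 2 KO1 and 3 KO2 peaks of Flag-actin, and 1 peak of the IgG library of that arm. It spans 9.86 kb, and only 6 of 9023 genes shorter than 20 kb had 10 or more peaks in that control list. The strongest, chr17:81806951-81807640 with rank 81.4, was an IgG site. The strongest outside IgG sites, chr17:81812691-81813460, was 770 bp wide with rank 81.1 and overlapped a KO1 peak of rank 40.6. The next, chr17:81813721-81814450 with rank 79.9 at the upper end of the gene, overlapped peaks of both knockout libraries, of rank 18.5 in KO1 and 64.5 in KO2. The upper end of GCGR was therefore marked in all 3 Flag-actin libraries.

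CYP11B2 and CYP11B1 encode the adrenal enzymes that finish aldosterone and cortisol. CYP11B2, chr8:142910559-142917843, held 4 Flag-actin control peaks and none in KO1, KO2 or either IgG library. Its strongest, chr8:142917161-142917900, covered 740 bp across the upper gene end with rank 86.9, the highest of any marker peak outside IgG sites in that library. CYP11B1, chr8:142872357-142879825, held 3 peaks in the control, none in KO1, 3 in KO2 and none in either IgG library, with best ranks of 65.8 and 56.2. One position, chr8:142875601-142876020, was shared by the control and KO2. The 2 genes are close copies of each other, and no source used here tells how reads that match both were placed. GCG, the glucagon gene, had no peak in any list.

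TUBB3, the neuronal beta tubulin gene at chr16:89921925-89936097, had the strongest BRG1 mark at a start site. The BRG1 control peak chr16:89921541-89922260 was 720 bp wide, 15 steps high and of rank 83.5. BRG1 KO2 had a 130 bp peak inside it, of rank 30.8, and KO1 had none. The gene held 8 control, 1 KO1 and 4 KO2 peaks of Flag-actin, and no peak in either IgG library. The Flag-actin peaks were strongest near the far end of the gene, at chr16:89934761-89935150 with rank 78.2, away from the BRG1 peak. A narrow site at chr16:89926671-89926720 was called in Flag-actin KO1, Flag-actin KO2 and the BRG1 control but not in the Flag-actin control.

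MBP, the gene of myelin basic protein at chr18:76978833-77133708, had the strongest BRG1 peak among the markers outside IgG sites. BRG1 peaks numbered 7, 3 and 7 in control, KO1 and KO2, and the IgG library of that arm held 2. The control peak chr18:77101621-77101940 had rank 84.2 and was 28 steps high. It and the peak chr18:77067421-77067770, of rank 73.2, each overlapped a peak of KO1 and of KO2. The best ranks in the knockout libraries were 38.3 in KO1 and 64.8 in KO2. Flag-actin gave 3, 3 and 4 peaks, none of rank above 35.2 outside IgG sites. Both BRG1 positions lie within the gene, far from its ends.

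MAP2, a microtubule-binding protein of dendrites, spans chr2:209424047-209734112. BRG1 gave 6 control, 4 KO1 and 4 KO2 peaks, beside 1 in each IgG library. The position chr2:209496031-209496190 was held in the control (rank 47.4), KO1 (42) and KO2 (45). Flag-actin gave 1, 3 and 3 peaks in the same order, and its control peak was an IgG site. MAP2 was the one marker of 40 with Flag-actin peaks outside IgG sites in both knockout libraries and none in the control. Over all genes 703 of 20037 had this pattern, so it does not set MAP2 apart.

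**Figure D4:**
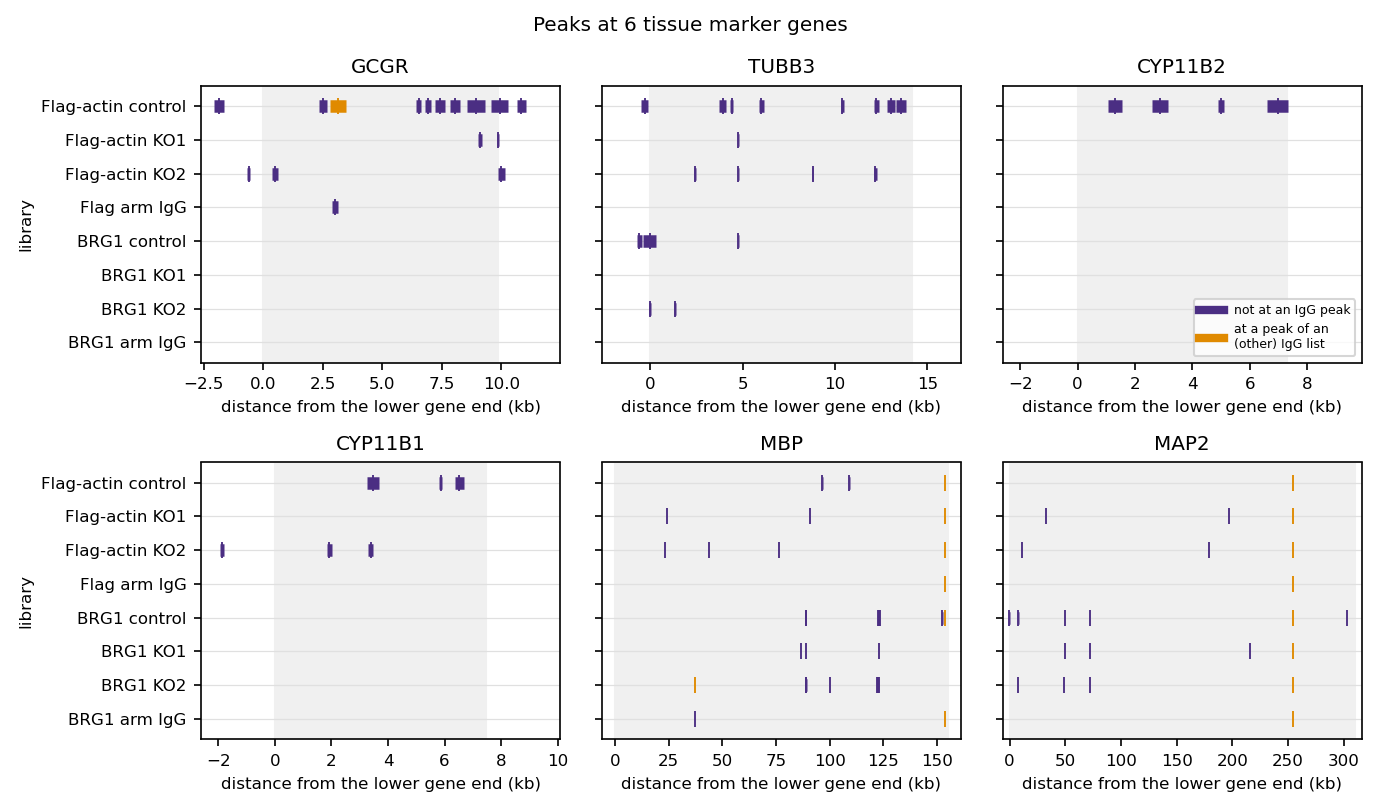
Peaks of each library along GCGR, TUBB3, CYP11B2, CYP11B1, MBP and MAP2, by distance in kb from the end of the gene with the lower coordinate (grey, annotated span); colours as in the map of RBFOX3, and bars are drawn with a minimum width. GCGR, CYP11B1 and CYP11B2 hold Flag arm peaks alone, and MBP and MAP2 hold BRG1 peaks at positions that recur in KO1 and KO2.

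SYT1, the calcium sensor of synaptic vesicles, spans 588 kb at chr12:78863982-79452008. BRG1 gave 13, 8 and 5 peaks in control, KO1 and KO2, and its IgG library gave 5. Flag-actin gave 4, 6 and 6, and 2 in the IgG library. Outside IgG sites the BRG1 counts were 9, 3 and 1, and the Flag-actin counts 2, 4 and 3. The 8 peaks of BRG1 KO1 were therefore mostly IgG sites. SYT1 contains chr12:79140941-79140970, a 30 bp site at ranks from 93.1 to 98.5 in all 8 lists.

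Other neuronal markers carried fewer peaks. GRIN1, a subunit of the NMDA receptor, had 3, 2 and 4 Flag-actin peaks and 3, 1 and 2 BRG1 peaks in control, KO1 and KO2, and its highest-ranked site was at IgG in each list. Outside IgG sites its best rank was 64.6, in the BRG1 control. CAMK2A, a kinase of synapses, had 3, 2 and 3 Flag-actin peaks with best ranks of 62.8, 30.6 and 57.4, at different positions in each library, and 1 BRG1 control peak of rank 12.6. SLC17A7, which loads glutamate into vesicles, had 1 control peak of each antibody, of rank 31.1 for Flag-actin and 67.2 for BRG1, both in the 2 kb beside the gene and not in it. The Flag-actin peak lay over the neighbouring gene GFY. SNAP25 and GAD1 had a Flag-actin peak in the control and 1 knockout library, and GAD2 had 2 BRG1 control peaks. The neurofilament genes NEFL and NEFM had no control peak of either antibody.

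Of the liver markers 3 of 8 had a peak in each control list. APOA1, the main protein of high-density lipoprotein, had 2 Flag-actin control peaks (best rank 51.6), 1 BRG1 control peak (64.4) and 1 BRG1 KO2 peak (21.9) that overlapped the BRG1 control peak. AHSG, a serum glycoprotein, had 1 Flag-actin peak in the control (69.2) and 1 in KO1 (31.6), and 2 BRG1 control peaks (best 45.7). Neither gene had an IgG peak. TTR had 1 BRG1 control peak, CYP3A4 had 1 Flag-actin control peak, and ALB, the albumin gene, had 1 peak, in Flag-actin KO2. Ranks of these last 3 were 13.7, 6.53 and 21.1.

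Among blood markers CD4, a co-receptor of T cells, had 1 Flag-actin peak in each of the control, KO1 and KO2 libraries, at ranks 26.6, 39.5 and 68.2, none of them overlapping. It had 1 BRG1 control peak, of rank 36.3. CD68, of macrophages, had 1 Flag-actin control peak of rank 67 beside the gene, and BRG1 peaks of rank 22.7 in the control and 25.4 in KO1. MS4A1, of B cells, and PTPRC, of all white blood cells, had 1 peak in every library. The MS4A1 peak was an IgG site in all of them, and the PTPRC peak was one in all but the Flag-actin control, whose peak lay elsewhere in the gene at rank 42.

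Of the heart markers TNNI3, cardiac troponin I, had 2 Flag-actin control peaks. One was an IgG site present in all 8 lists. The other, chr19:55151871-55152320, had rank 72.4 and was in no other list. TNNT2, cardiac troponin T, had 4, 3 and 1 Flag-actin peaks and 2, 1 and 2 BRG1 peaks, and outside IgG sites no rank passed 41.4. The myosin heavy chain genes MYH6 and MYH7 are close copies side by side, and their peaks outside IgG sites had ranks of at most 38.9. MYL2, a myosin light chain gene, had 1 peak, of rank 2.22 in BRG1 KO1. Of the glial markers, GFAP had 3 Flag-actin peaks in KO2, 1 in the Flag arm IgG library and 1 BRG1 control peak.

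Across 7 marker genes, 9 positions were called in all 8 lists, IgG included: 2 in SYT1, 2 in RBFOX3 and 1 each in MAP2, GRIN1, MS4A1, TNNT2 and TNNI3. They were between 20 and 240 bp wide and often at the top of a list, as at GRIN1 (chr9:137163721-137163960), where ranks ran from 90.2 to 97.8. With PTPRC and MBP, 9 marker genes had a peak in all 8 lists, 22.5% beside 20.6% of all genes. At the other extreme, 6 markers had no peak in any antibody list: FGB and F2 of blood clotting, the cytochrome CYP2E1, the myelin gene MOG, the T cell gene CD3E, and GCG. With IgG sites left out, SYN1, NEFM and MS4A1 joined them. A further 11 markers had a peak outside IgG sites in 1 antibody list alone. No share over all genes was worked out for the markers without peaks or with 1 list. Whether these counts set the markers apart from other genes was therefore not examined.

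Fewer marker genes had peaks in knockout than in control libraries, for both antibodies. Flag-actin peaks were present at 17 genes in KO1 (39% of all genes) and 19 in KO2 (47.4%), a mean of 18 ± 1.41 (SD, n = 2) against 24 in the 1 control library. BRG1 peaks were present at 13 genes in KO1 (34.9%) and 15 in KO2 (44.6%), a mean of 14 ± 1.41 (SD, n = 2) against 22. The knockout lists were shorter than the control lists, and the part of this in the difference was not tested. Outside IgG sites Flag-actin peaks were present at 13 genes in KO1 (23.8% of all genes) and 14 in KO2 (33.4%), and BRG1 peaks at 6 (15.7%) and 10 (28.3%). With every antibody list shortened to 23784 peaks, the control had 13 genes for BRG1 against a knockout mean of 12 ± 1.41 (SD, n = 2), and 19 for Flag-actin against 15.5 ± 0.707 (SD, n = 2).

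Of the 24 genes with Flag-actin peaks in the control, 6 had none in either knockout library (25%, beside 21.4% of all genes): APOA1, CYP3A4, SLC17A7, CD68, INS and CYP11B2. Of the 22 BRG1 genes, 9 had none (40.9%, beside 29.9%): TTR, AHSG, GAD2, SLC17A7, CAMK2A, GFAP, CD4, MYH6 and MYH7. Outside IgG sites the shares were 8 of 22 for Flag-actin (36.4%, beside 35.5%) and 9 of 18 for BRG1 (50%, beside 47.9%), close to the genome in both. Peaks outside IgG sites in all 3 libraries were held by SYT1, RBFOX3 and MBP for both antibodies. TUBB3, GRIN1, CAMK2A, CD4 and GCGR held them for Flag-actin only, and MAP2 for BRG1 only. These were 8 of the 40 markers for Flag-actin and 4 for BRG1, beside 2014 and 1833 of the 20037 genes.

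Gene-end peaks were at fewer genes in 3 of the 4 knockout libraries than in the control. Flag-actin KO1 had them at MYH6 and GCGR (6.72% of all genes), and KO2 at GCGR (11.1%), against 15 genes in the control. BRG1 KO1 had them at 0 of 40 genes (7.06% of all genes; exact 95% interval 0 to 8.81%), and KO2 at 4, namely APOA1, RBFOX3, TUBB3 and CD8A (15.1%), the same number as the control. In knockout cells Flag-actin alone marked 7 genes in KO1 (12.6% of all genes) and 8 in KO2 (14%), and BRG1 alone marked 3 (8.52%) and 4 (11.2%). Outside IgG sites Flag-actin alone marked 9 genes in KO1 (16.9%) and 8 in KO2 (19.5%), and BRG1 alone 2 (8.76%) and 4 (14.4%).

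A gene counted in several libraries was seldom marked at the same place. Of 148 Flag-actin control peaks outside IgG sites, 6 overlapped a KO1 peak (4.05%, beside 2.63% of the list), 8 a KO2 peak (5.41%, beside 4.88%) and 6 a BRG1 control peak (4.05%, beside 5.01%). Of 56 BRG1 control peaks, 5 overlapped a KO1 peak (8.93%, beside 7.16%) and 9 a KO2 peak (16.1%, beside 13.7%). Overlap with Flag-actin control peaks was found for 7 of the 56 (12.5%, beside 3.89%), in AHSG, GRIN1, RBFOX3, SYT1 and TUBB3. Without RBFOX3, which has more Flag-actin peaks to overlap than nearly any gene, 5 of 39 overlapped, about the same share. The reason for the higher share at the markers was not tested.

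Position on the chromosome went with the Flag-actin control peaks. Of the markers, 10 lie within 5 Mb of the outermost annotated gene of their chromosome: CYP2E1, RBFOX3, TUBB3, GRIN1, MBP, TNNI3, INS, GCGR, CYP11B1 and CYP11B2. Of these, 9 had a Flag-actin control peak (61.2% of all genes so placed), against 15 of the other 30 (48.6%). For BRG1 the counts were 5 of 10 (55.3%) and 17 of 30 (63%). The genes near chromosome ends held 138 of the 163 Flag-actin peaks, of which RBFOX3 accounts for 104. Over all genes Flag-actin control peaks were also denser there, at 58.9 against 15.4 per Mb of gene. BRG1 control peaks were denser there too, at 32.9 against 25 per Mb. In the Flag-actin knockout libraries the densities were 16.5 against 10.6 (KO1) and 28.4 against 14.1 (KO2). Their shares of all genes with a peak differed little, at 37.2% against 39.3% (KO1) and 49.9% against 47% (KO2). For promoter GC content each gene was taken at its promoter entry of highest GC content. Markers with a Flag-actin control peak had a median of 62%, and those without 57.3%, over the 26 genes with a promoter entry. For BRG1 the medians were 63.7% and 57.3%. Over all genes the Flag-actin medians were 67.3% and 61.3% and the BRG1 medians 66.7% and 60%. By this measure the higher GC content went with peaks of either antibody. A gene with more promoter entries has more chances of a high value, and this was not allowed for.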

How the data were processed

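Peaks were measured by CUT&RUN in 8 libraries. Per the submitters' processing notes, the tools were SEACR, MACS2, bedtools 2.30.0, BWA, FastQC 0.12.0, SAMtools, Trim Galore 0.4.5 and deepTools, and the genome build hg38, with neither order nor settings. The authors deposited 1 list per library, in the 6-column layout of SEACR, with the total and the maximum signal of each peak. How the deposited signal was normalised is not stated, so it was used to rank peaks within a list. It was also divided by the library's step, the value of which maximum signals below 200 steps were whole multiples (tolerance 0.05 steps, 100% of values in every library); the step was from 4.38 (BRG1 control) to 21.5 (Flag-actin control).

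Peaks outside chromosomes 1 to 22, X and Y, from 2.11% to 4.04% of a list, were dropped. Windows came from the RefSeq gene table of GRCh38, in which all 40 symbols matched. Overlaps were computed in Python 3.11.15 with pandas 2.3.3 and numpy 2.4.6, and were compared with bedtools 2.31.1 on simulated peaks (15000 windows, 0 differences). Intervals are Clopper-Pearson (scipy 1.17.1). Libraries were grouped by title.

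The marker genes and the comparison lists were chosen with earlier results of these data known. All 40 genes were accounted for and 16 described in full; of genes outside the list at most the 5 with the highest rank per control list could be named as comparison. GSE1, INS-IGF2 and GFY were named after their values were seen. Alternatives changed the window, the IgG rule, the list length, the signal threshold, the overlap, the peak width, the ranking signal and the knockout library.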

Additional observations from a re-analysis of the deposited data

Results flagged for a closer look

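At 2 neuronal genes the number of peaks stood on opposite sides of the control for the antibodies, in both knockout libraries. This difference was not tested, and how many of all genes show it was not counted. The counts include IgG sites. At SYT1 the knockout mean minus the control was 2 peaks for Flag-actin and -6.5 for BRG1. At MAP2 it was 2 peaks for Flag-actin and -2 for BRG1. The IgG libraries held 2 and 5 peaks at SYT1 and 1 each at MAP2, and the part of list length in these counts was not tested.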

How the results depend on the processing

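No paired analysis was possible because the results come from no test; side by side, Flag-actin and BRG1 peaks were at 24 and 22 genes in control, 17 and 13 in KO1, and 19 and 15 in KO2. Within 1 kb of gene ends the counts of marker genes were 15 (Flag-actin control), 4 (BRG1 control), 1.5 (Flag-actin knockout mean) and 2 (BRG1 knockout mean), and the control difference, Flag-actin minus BRG1, was 11 in place of 2. With 10 kb flanks that difference was -1. Without IgG sites the difference was 4 and the BRG1 knockout mean 8. In lists shortened to 23784 peaks the BRG1 control count was 13 and the difference 6. In the upper 50% of each list the BRG1 control count was 13 and the BRG1 knockout mean 9. Without peaks of up to 50 bp the BRG1 knockout mean was 7.5 and the difference 6. Without IgG sites and with shortened lists together, a setting chosen after seeing the data, the counts were 14, 8, 9.5 and 5 in the order above and the difference 6. The cause of these shifts was not tested. Leaving out 1 knockout library gave 17 to 19 genes for Flag-actin and 13 to 15 for BRG1. The 104 Flag-actin control peaks of RBFOX3 numbered 59 in the shortened list, 42 in the upper 50% and 54 in the shortened list without IgG sites. Ranking by maximum signal moved the median best rank of the markers from 43.1 to 48.1 (Flag-actin control) and from 45 to 37.2 (BRG1 control). Depth is unknown, so a gene without a peak was not called at the authors' threshold and may still be bound.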

Other observations

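Just outside the 2 kb flanks, between 2 and 10 kb from the gene, a Flag-actin control peak lay at 4 markers with none nearer (F2, CD3E, MYH7 and GFAP). A BRG1 control peak did so at 7 (ALB, FGB, CYP3A4, NEFL, CYP2E1, F2 and GCGR). No share over all genes was worked out and the BRG1 control list is the longer, so these counts are not compared. The 10 genes with the most Flag-actin control peaks, RBFOX3 among them, lay between 0.648 and 5.74 Mb from the outermost gene of their chromosome and held between 41 and 115 such peaks.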
